A study of Homo sapiens with 6 samples.

Results

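BDNF, neurotrophin-3 (NTF3) and the receptors through which neurotrophins act, TrkB (NTRK2), TrkC (NTRK3), p75 (NGFR) and sortilin (SORT1), were followed in RBM12-depleted human neurons with and without isoproterenol. These 6 genes, chosen by name, were all among the 19823 genes measured, and all 6 passed the limit on low counts that left 18130 genes for testing. BDNF mRNA was 1.49-fold higher on average with isoproterenol and rose within each of the 3 same-numbered pairs of samples. The rise passed the test only when the pairs were modelled, because BDNF also differed more than 2-fold between replicates of the same group. None of the 4 receptor mRNAs passed the test with or without the pairs.

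Neurotrophins are secreted proteins that support the survival, growth and synaptic function of neurons. BDNF binds the receptor tyrosine kinase TrkB, neurotrophin-3 binds mainly TrkC, and the immature proneurotrophins bind p75 together with sortilin, a sorting receptor that also steers BDNF within the cell. The BDNF gene has several promoters, and its transcription is known to follow neuronal activity and cAMP signaling through the transcription factor CREB.

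RNA-seq of poly(A) transcripts covered 6 samples of glutamatergic neurons (iNeurons) made from WTc11, an established human induced pluripotent stem cell line. All 6 samples carried a knockdown of RBM12, which encodes an RNA-binding protein, made by CRISPR interference (dCas9-KRAB, a dead Cas9 fused to a transcriptional repressor) with a lentiviral guide RNA, and 3 were untreated while 3 received isoproterenol, an agonist of the β2-adrenergic receptor that raises cAMP. The contrast asks how these genes respond to the agonist when RBM12 is depleted. Samples with a non-targeting guide were not analysed here, and no effect of the depletion itself can be read from these values.

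Several features limit the model. The line is a clone in which doxycycline-driven NGN2 converts stem cells into neurons, and it has the native, low level of the β2-adrenergic receptor. The neuron medium of the study was supplemented with recombinant BDNF and neurotrophin-3 protein, so the cells were exposed to both ligands whatever their own mRNA, and RNA-seq does not measure the proteins. Dose and duration of isoproterenol are not in the labels, and nothing states that the replicates came from separate cultures, so p-values may measure technical spread. Nor is it stated that same-numbered samples shared a culture. Treating them as pairs rests on their numbers and on correlations in these data. In such bulk samples, fewer cells of a type and less RNA per cell cannot be told apart.

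Recovered reads numbered 18116816 to 21488793 per sample. RBM12 itself had normalized counts (reads divided by the size factor of the sample) of 244, 279 and 267 in untreated and 195, 238 and 233 in isoproterenol replicates 1 to 3, a difference that did not pass the test (limma adjusted p = 0.607, blocked adjusted p = 0.131), and without a control guide these values do not check the knockdown. Several markers of the labelled cell type were abundant, but some of other cell types were too. The vesicular glutamate transporters SLC17A6 and SLC17A7 averaged 608 and 107 TPM (reads per kilobase of exon, scaled to the same total in every sample) in untreated samples, whereas the 3 GABAergic markers summed to between 2.52 and 3.18 TPM. STMN2 reached 6683 TPM, but TUBB3, a defining neuron marker, was at 2.19 TPM. TUBB3 shares 1584 exonic bases with another gene on the same strand that is not in the table. Of 5 astrocyte markers only AQP4 had values, at 3.50 to 4.73 TPM in untreated and 3.18 to 3.63 TPM in isoproterenol samples. The 5 peripheral and cholinergic neuron markers summed to 500.4 to 589 TPM in untreated samples, with POU4F1 alone averaging 457 TPM. The 4 oligodendrocyte and Schwann cell markers with values summed to 20.3 to 22.9 TPM in untreated samples. The stem cell genes SOX2 and POU5F1 were under the limit on low counts, and NANOG and DPPA4 had no values. LIN28A, from the same list, was above the limit and averaged 0.85 TPM in untreated samples. Of 4 proliferation markers only CCNB1 had values, with an average of 11.4 TPM in untreated samples.

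Over the length of all annotated exons, each of the 4 receptor transcripts was more abundant than either ligand transcript in untreated samples. On this TPM scale, SORT1 averaged 85.0 ± 1.13 (SD, n = 3) and NGFR 81.4 ± 4.71 in untreated samples, and the ranges of the 2 overlapped. NTRK2 followed at 39.9 ± 3.86 TPM and NTRK3 at 15.4 ± 1.23 TPM. BDNF averaged 8.60 ± 2.73 TPM, which placed it at the 41.9th percentile of tested genes, and NTF3 was lowest at 0.745 ± 0.207 TPM. From NGFR downward no neighbours in this order overlapped among untreated samples. With isoproterenol BDNF reached 8.24 to 17.9 TPM and overlapped NTRK3, which lay between 14.0 and 17.2 TPM. NTRK2 and NTRK3 have many long annotated isoforms, and the order depends on the length used. Over the length of the canonical transcript rather than all exons, NTRK2 led with 98.8 TPM, ahead of SORT1 with 71.7, NGFR with 64.0, NTRK3 with 13.3, BDNF with 10.8 and NTF3 with 1.05 TPM in untreated samples. On this scale BDNF averaged 16.3 TPM with isoproterenol, above NTRK3 with 13.9 TPM. Gene-level counts do not separate full-length TrkB from its truncated forms, which lack the kinase.

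**Figure D1:**
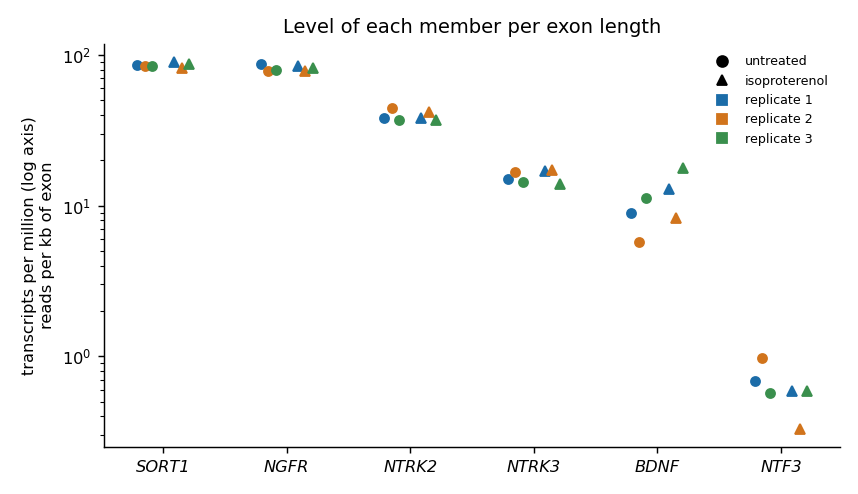
Level of each gene in TPM, over the length of all annotated exons, on a log axis. Circles are untreated and triangles isoproterenol samples, with replicate number by colour. SORT1 and NGFR lie highest and overlap, BDNF spans 5.73 to 17.9 TPM over the 6 samples, and NTF3 stays under 1 TPM.

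BDNF lies on the minus strand of chromosome 11 (GRCh38, 27654893 to 27722058), where 17 transcripts are annotated, of which the 15 coding ones start at 10 sites. The RefSeq promoter table (GRCh38.p14) holds 5 windows of 300 bases for it. They were searched for the cAMP response element, TGACGTCA, the site that CREB binds, and for its 5-base core, TGACG or CGTCA, on both strands. The core lies within the full element, so a full element also counts as a core. No window of BDNF held the full element, which 1.85% of all 35116 windows hold. The core was found in 1 of the 5, the window at start site 4 (counted from the upstream end), 47 bases before the start, and 24.6% of all windows hold it. Stretches before start sites 4 and 2 are shown to compare a BDNF promoter with the core, in capitals, and one without it.
BDNF start 4, chr11:27701642-27701781, minus strand: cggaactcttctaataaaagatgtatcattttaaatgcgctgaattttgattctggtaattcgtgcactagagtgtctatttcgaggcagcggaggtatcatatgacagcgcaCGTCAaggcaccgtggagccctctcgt
BDNF start 2, chr11:27720800-27720939, minus strand: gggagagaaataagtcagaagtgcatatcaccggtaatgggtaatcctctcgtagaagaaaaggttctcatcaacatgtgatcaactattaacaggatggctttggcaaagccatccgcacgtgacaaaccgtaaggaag
A match is a description of letters, and gene-level counts do not show which start site was used.

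BDNF was measured at 323, 211 and 426 normalized counts in replicates 1, 2 and 3 without isoproterenol, and at 466, 303 and 662 with it. Replicate 2 was lowest and replicate 3 highest in both groups, and the groups overlapped, since isoproterenol replicate 2 lay below untreated replicates 1 and 3. Group means were 319.9 ± 108 and 477 ± 179 normalized counts (SD, n = 3). The 3 within-pair responses were close to each other. The isoproterenol sample exceeded its untreated partner 1.44-fold in pair 1 (95% exact binomial interval 1.25 to 1.67), 1.44-fold in pair 2 (1.20 to 1.73) and 1.55-fold in pair 3 (1.37 to 1.76), intervals that cover counting error only. On the log2 scale the 3 within-pair differences were 0.53, 0.52 and 0.63. Their SD was 0.062, whereas the SD among the untreated samples was 0.51. The 3 ratios lay within each other's counting intervals, so so small an SD from 3 values is itself uncertain.

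Without the pairs, the BDNF log2 fold change of 0.56 ± 0.42 (SE, 95% interval -0.58 to 1.70) did not pass the test, with a limma adjusted p of 0.820 over all 18130 genes. In this fit 0 of the 6 genes passed, beside 0.0165% of all genes tested, and 1393 of all genes and 0 of the 6 had an unadjusted p under 0.05. With replicate number as a block, the same fold change had an SE of 0.079 and an interval of 0.41 to 0.72, a rise of 32.5% to 64.4%, at a limma adjusted p of 3.82e-08. BDNF was then the only one of the 6 to pass, beside 4.88% of all genes in either direction and 2.82% that rose. It ranked 506 of 18130 by fold change. The exact permutation test over samples, which ignores the pairs and cannot go below 0.1, gave p = 0.3.

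Count-based tests gave the same division. BDNF did not pass in edgeR without the block (unadjusted p = 0.0212, adjusted p = 0.564, when 0.0552% of genes passed) and passed with it (log2 fold change 0.57, adjusted p = 1.12e-08, when 5.1% passed). In DESeq2, 0.116% of genes passed without the block, BDNF not among them, and 0.789% with it, where BDNF had an adjusted p of 9.91e-04. Dropping any 1 pair from the blocked limma fit left a log2 fold change of 0.53 to 0.58.

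**Figure D2:**
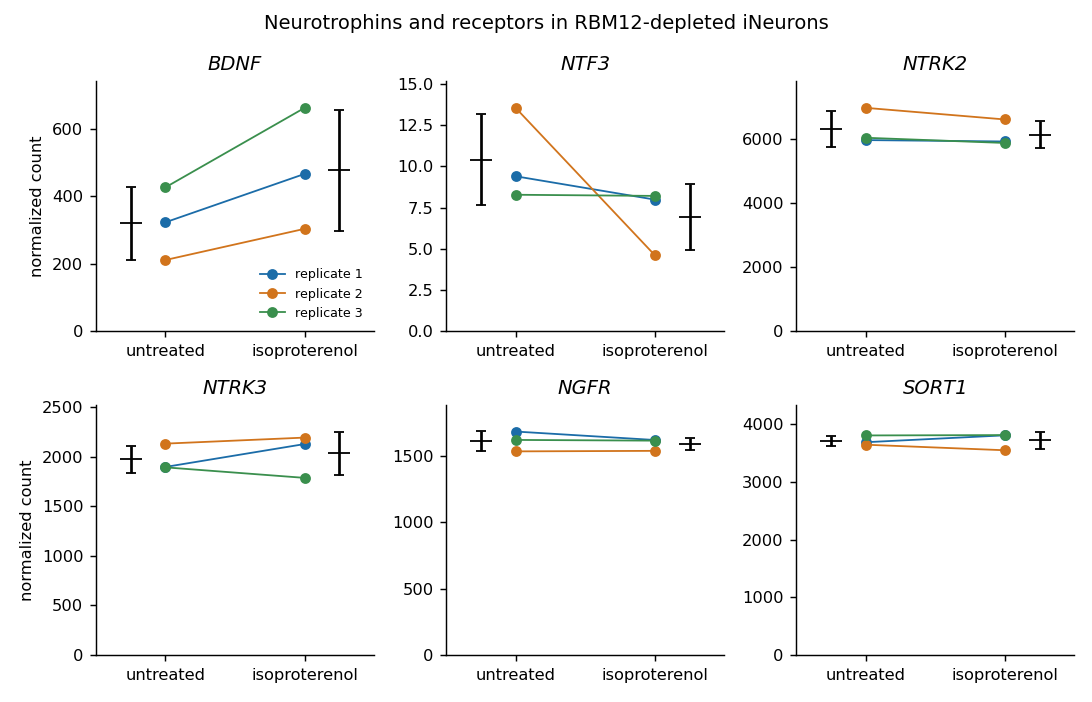
Normalized counts of the 6 genes in each sample, with lines joining samples that share a replicate number and black bars giving group mean ± SD (n = 3). BDNF rose along all 3 lines, from 211 to 303 in the lowest pair and from 426 to 662 in the highest, while the lines of the 4 receptors stayed nearly level.

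The spread of BDNF between replicate numbers exceeded its response. Over both groups, replicate 3 lay 1.07 above replicate 2 and 0.45 above replicate 1 on the log2 scale. A limma F test for replicate number, added after these values were seen, gave BDNF an adjusted p of 6.86e-16, in a test that 10.3% of all genes passed. NTRK2 (adjusted p = 1.01e-07) and NTRK3 (5.16e-04) also passed it, but in the opposite direction, with replicate 3 lower than replicate 2 by log2 differences of -0.19 and -0.23. NTF3, NGFR and SORT1 did not pass, with adjusted p-values of 0.994, 0.338 and 0.277. Among 4622 genes within 2-fold of the level of BDNF, 0.130% varied more than it did between untreated samples.

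The neuronal subtype marker POU4F1 was highest in replicate 2 of each group, as were NTRK2 and NTRK3. It was measured at 9659, 10838 and 9259.5 normalized counts in untreated and 8569, 9965 and 8271 in isoproterenol replicates 1 to 3. It fell by 0.15 on the log2 scale with isoproterenol (limma adjusted p = 0.735, blocked adjusted p = 1.40e-07). It was the only 1 of 5 peripheral and cholinergic neuron markers to pass with the block, beside 4.88% of all genes. The 5 markers summed to 500.4 to 589 TPM in untreated and 474 to 550.3 TPM in isoproterenol samples. The part of cell composition in the BDNF difference was not tested.

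The antisense transcript BDNF-AS overlaps 988 exonic bases of BDNF (12.8% of its exons) on the other strand. The libraries were directional, but whether counting used the strand is not stated, so how reads from the shared bases were counted is not known. BDNF-AS was at 44.9, 62.9 and 24.8 normalized counts in untreated and at 25.9, 48.4 and 26.7 in isoproterenol replicates 1 to 3. It was highest in replicate 2 of each group, where BDNF was lowest. Its log2 fold change of -0.35 ± 0.32 (SE) did not pass the test (limma adjusted p = 0.841, blocked adjusted p = 0.538).

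Across the 6 samples, the genes whose log2 levels followed BDNF most closely were ETV4 (Pearson r = 0.999), ATP1B3 (0.998), HUS1 (0.995), CAPRIN2 (0.993) and MANEAL (0.993), among the 13062 tested genes that averaged 50 normalized counts or more. ETV4 encodes an ETS family transcription factor and ATP1B3 a subunit of the sodium pump. All 5 kept the same order of replicates as BDNF in each group and were higher in all 3 pairs. Their choice by correlation with BDNF over these same samples made both nearly certain. They moved over a smaller range, with log2 fold changes between 0.077 and 0.22. ETV4 ran from 1789 to 2318 normalized counts in untreated and from 2062 to 2692 in isoproterenol samples. The likeness is a description over samples that share their pairing.

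**Figure D3:**
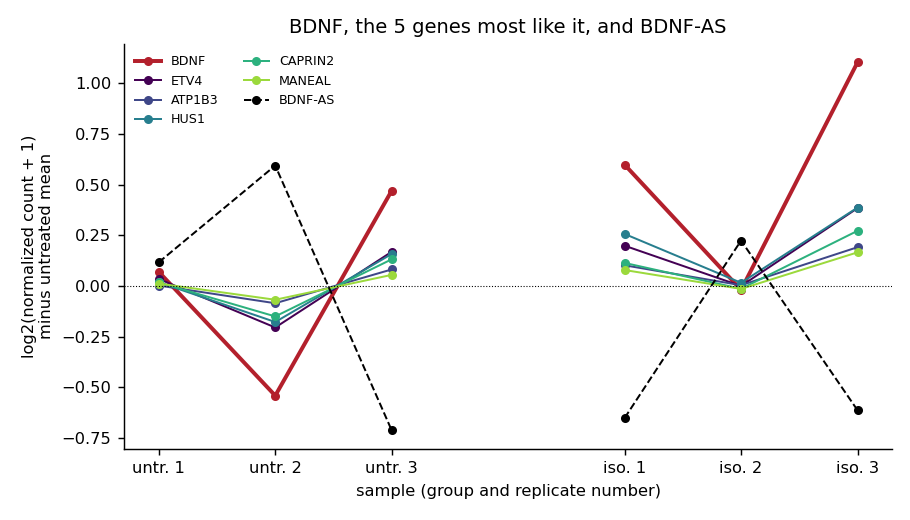
Log2(normalized count + 1) minus the untreated mean of each gene, in the 3 untreated and 3 isoproterenol samples, for BDNF (thick line), the 5 genes most like it and BDNF-AS (dashed). All but BDNF-AS are lowest in replicate 2 and highest in replicate 3 of each group, BDNF over the widest range, while BDNF-AS is highest in replicate 2.

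NTF3, the ligand of TrkC, was near the limit of detection (chromosome 12, 5432108 to 5521536, plus strand). It had 9.40, 13.5 and 8.28 normalized counts without isoproterenol (replicates 1 to 3) and 7.98, 4.61 and 8.21 with it, from 4 to 14 reads per sample. Every isoproterenol sample lay below every untreated one, though the nearest pair of values, 8.21 and 8.28, rested on 8 reads each. NTF3 was the only one of the 6 genes whose groups did not overlap, beside 12.9% of all genes. Its log2 fold change of -0.53 ± 0.44 (SE) did not pass (limma adjusted p = 0.813, blocked adjusted p = 0.656), and the exact permutation p of 0.1 is the smallest that 3 samples against 3 allow. The interval with the block, -64.1% to 33.3%, excludes neither a fall nor a rise.

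Of the 6 genes, BDNF alone was higher in all 3 pairs, beside 18.5% of all genes. NTF3 and NTRK2 were lower in all 3, beside 17.6% of all genes.

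NTRK2, the gene of TrkB, the receptor for BDNF, spans 84668375 to 85095751 on the plus strand of chromosome 9, with 58 annotated transcripts. It was at 5977, 6985 and 6049.5 normalized counts without isoproterenol (replicates 1 to 3) and at 5933, 6622 and 5887 with it. Replicate 2 was highest in both groups, and the groups overlapped. The log2 fold change was -0.042 ± 0.062 (SE, limma adjusted p = 0.917, blocked adjusted p = 0.424). The blocked 95% interval of -6.19% to 0.519% leaves out a rise of the size seen for BDNF.

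Of the 4 RefSeq promoter windows of NTRK2, none held the full cAMP response element and 1, at start site 3, held the core in 2 places, 145 and 56 bases before the start. The sites are shown beside that of BDNF for the letters around the core, in capitals. All 28 bases of the first NTRK2 stretch and 6 of the second lie in an untranslated region annotated in GENCODE, and none of the BDNF stretch does.
BDNF start 4, chr11:27701653-27701680, minus strand: tatgacagcgcaCGTCAaggcaccgtgg
NTRK2 start 3, chr9:84670192-84670219, plus strand: tggctccagcggCGTCAgtgccatcgcg
NTRK2 start 3, chr9:84670281-84670308, plus strand: tcggggtggggaTGACGcgagcagagag
NTF3 (2 windows), NTRK3 (1) and SORT1 (2) held neither the element nor the core, and NGFR had no entry.

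NTRK3, the gene of TrkC, lies on the minus strand of chromosome 15 (87859751 to 88256791). It was at 1897, 2133 and 1893 normalized counts without isoproterenol (replicates 1 to 3) and at 2128, 2193.5 and 1787 with it. The pairs disagreed in sign, with log2 differences of 0.17, 0.041 and -0.083, and the groups overlapped. The log2 fold change of 0.041 ± 0.073 (SE) did not pass (limma adjusted p = 0.932), and its blocked interval was -2.38% to 8.43%. NTRK2 exceeded NTRK3 2.25-fold to 2.66-fold per exon length in each of the 6 samples.

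NGFR, the gene of p75, lies on chromosome 17 (49495293 to 49515008, plus strand). It was at 1685, 1536 and 1622 normalized counts without isoproterenol (replicates 1 to 3) and at 1621.5, 1539.6 and 1617 with it. The isoproterenol values lay within the untreated range. The log2 fold change was -0.019 ± 0.053 (SE, limma adjusted p = 0.963), with a blocked interval of -6.62% to 4.31%. Antisense genes that are not in the table overlap 924 and 202 exonic bases of NGFR.

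SORT1, the gene of sortilin, lies on chromosome 1 (109309568 to 109397918, minus strand). It was at 3689, 3646 and 3807 normalized counts without isoproterenol (replicates 1 to 3) and at 3809, 3549.7 and 3813 with it. It was the steadiest of the 6 among untreated samples, whose highest value was 1.04-fold the lowest, and the groups overlapped. The log2 fold change was 0.0032 ± 0.045 (SE, limma adjusted p = 0.993), with a blocked interval of -3.78% to 4.39%.

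**Figure D4:**
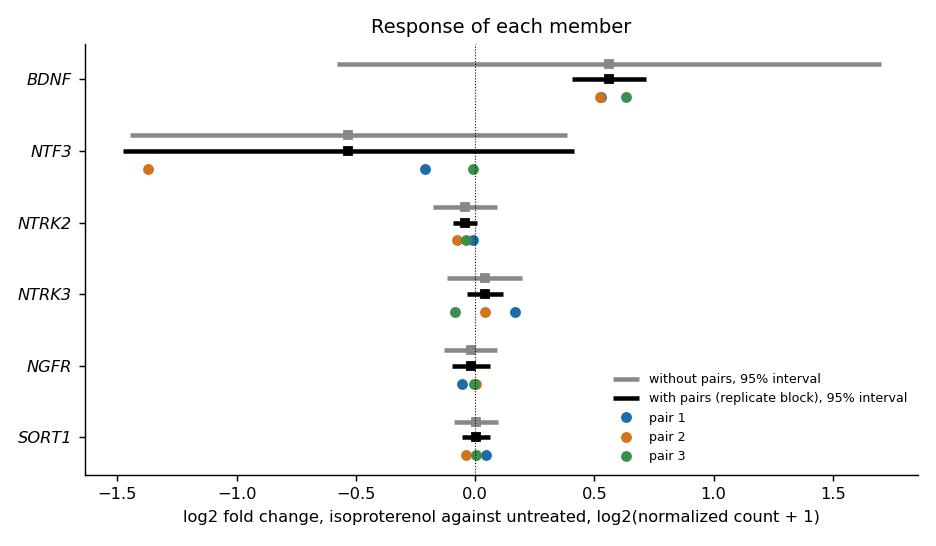
Log2 fold change of each gene, isoproterenol against untreated, with 95% intervals of the limma fit without pairs (grey) and with the replicate block (black). Coloured points are the 3 within-pair differences. With the block the BDNF interval narrows to 0.41 to 0.72 and leaves 0, whereas the intervals of the other 5 genes include 0 in both fits.

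Among the relatives of sortilin, SORL1, a sorting receptor also known for its handling of amyloid precursor protein, was at 453, 425 and 424 normalized counts in untreated and 548, 513 and 499 in isoproterenol replicates 1 to 3, with no overlap. SORL1 rose by 0.26 and SORCS3 by 0.16 on the log2 scale in the blocked fit (limma adjusted p = 0.0122 and 0.0195). Neither passed when the pairs were not modelled (limma adjusted p = 0.374 and 0.576). SORCS1 and SORCS2 did not pass, with log2 fold changes of -0.080 and -0.034. SORCS2 was the most abundant of these at 81.8 TPM.

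The wider neurotrophin pathway was described with lists of p75 partners, Trk adaptors, Trk kinase cascades, processing and release of proneurotrophins, regulators of BDNF transcription, and further ligands, receptors and antisense partners of the family. Of 97 genes other than the 6, 89 had values and 88 were tested. Without the block 0 of the 88 passed (11 had an unadjusted limma p under 0.05), and over all 114 tested genes of these and the other trophic lists edgeR without the block called 2 and DESeq2 0. With it 9 were higher and 1 lower in limma, 11.4% of the 88, beside 4.88% of all genes. The lists were chosen with earlier results of these data known, so the shares cannot test for an excess. The calls also depended on the tool and the pairs. Of the 14 genes of all 114 called in the blocked limma fit, 13 passed in edgeR with the block but only BHLHE40 in DESeq2 with the block, where NPAS4 received no adjusted p. BHLHE40 and NPAS4 were the only 2 of the 14 that passed in limma whichever pair was left out. The median log2 fold change of the 88 was 0.018, against 0.0015 for all genes. Groups did not overlap for 14 of the 88, or 15.9%, close to the 12.9% of all genes.

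Changes in the receptor-proximal lists were small, and the counts called in each stand beside 4.88% of all genes called with the block. In the blocked limma fit, PLCG1, the phospholipase that Trk receptors activate, rose by 0.14 on the log2 scale (adjusted p = 0.00156), and the adaptor SHC1 by 0.13 (0.0362), 2 of 19 Trk adaptors. Of 9 p75 partners, IRAK1, a kinase in NF-κB signaling, rose by 0.13 (0.0180). Of 21 genes in the kinase cascades, RPS6KA2, an RSK kinase downstream of ERK, rose by 0.064 (0.0314). Of 11 tested genes for processing and release, CADPS, which primes dense core vesicles for exocytosis, rose by 0.12 (0.00146). RPS6KA2, at 385 TPM, was the most abundant of its list. The most abundant genes of the other 3 lists did not pass, namely CPE, which helps sort proBDNF into secretory vesicles, at 1413 TPM, BEX3 at 1359 TPM and KIDINS220, a scaffold of Trk receptors, at 225 TPM.

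Among regulators of BDNF transcription, NPAS4 and BHLHE40 changed more than any gene of these lists. The median log2 fold change of the 21 regulators was 0.035, beside 0.028 for Trk adaptors and 0.023 for the kinase cascades. NPAS4, an activity-dependent factor known to act on BDNF promoters, was at 3.13, 0 and 8.28 normalized counts in untreated and 36.9, 61.1 and 109.8 in isoproterenol replicates 1 to 3, with no overlap. BHLHE40, a repressor, was at 88.8, 70.6 and 114 in untreated and 198, 178 and 387 in isoproterenol replicates 1 to 3, also with no overlap. Their log2 fold changes were 4.24 and 1.41, the first of which depends on the added count of 1. CRTC1, a cAMP-responsive coactivator of CREB, fell by 0.17 on the log2 scale. The 3 had limma adjusted p-values of 3.89e-14, 2.86e-16 and 0.00250 with the replicate block, and of 0.273, 0.446 and 0.536 without it. They were the 3 of 21 regulators that passed with the block, beside 4.88% of all genes, and ARNT2, the most abundant at 159 TPM, did not.

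**Figure D5:**
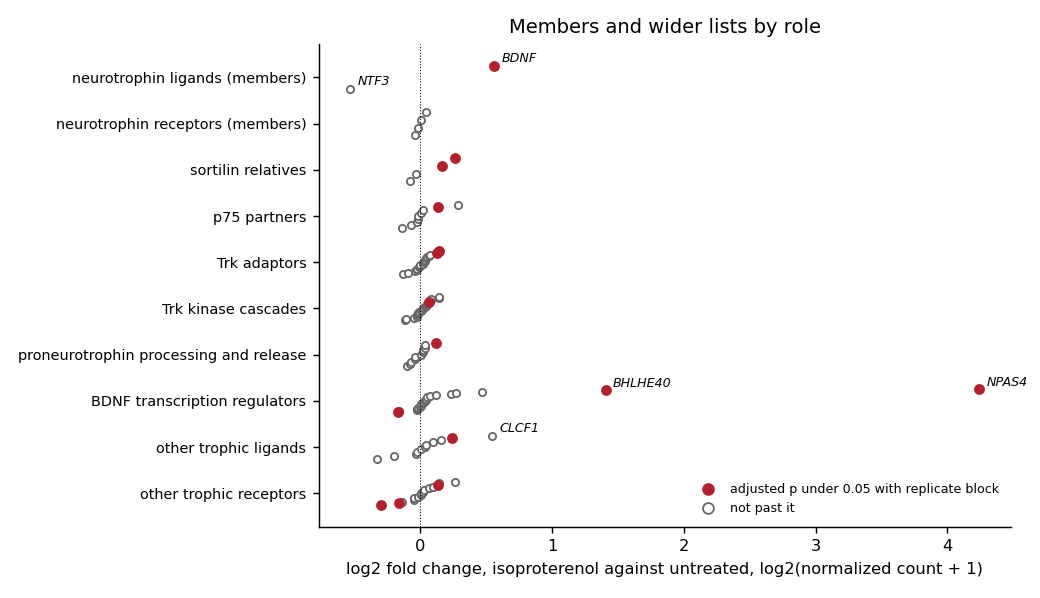
Log2 fold change of the 6 genes and of tested genes in the wider lists, isoproterenol against untreated, 1 line per role. Filled points had an adjusted p under 0.05 in limma with the replicate block. NPAS4 at 4.24, BHLHE40 at 1.41 and BDNF at 0.56 lie farthest right among the filled points, and most other points lie close to 0.

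For 9 immediate early genes, an activity-induced class that includes NPAS4, all were higher in all 3 pairs, beside 18.5% of all genes. The orphan nuclear receptor NR4A3 passed without the block, with a log2 fold change of 0.49 (limma adjusted p = 0.0324). With the block 8 of the 9 passed in limma, beside 4.88% of all genes. NR4A1 did not, at a log2 fold change of 2.28 (blocked limma adjusted p = 0.119), although its groups did not overlap. It was at 103, 110 and 136 normalized counts in untreated and 325, 543 and 1024 in isoproterenol replicates 1 to 3. Its log2 differences within pairs 1 to 3 were 1.64, 2.29 and 2.91. The median log2 fold change of the 9 was 1.13, against 0.56 for BDNF. This list too was chosen with earlier results of these data known, so its shares cannot test for an excess.

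Other trophic factors gave a scale for the neurotrophins. Of 26 tested ligands and receptors of other families, 0 passed without the block. With it, 1 of 11 ligands and 3 of 15 receptors passed in limma, beside 4.88% of all genes. The growth factor VEGFA rose by 0.24 on the log2 scale and the cytokine receptor LIFR by 0.13 (blocked limma adjusted p = 0.0350 and 0.00214). The GDNF family co-receptors GFRA2 and GFRA1 fell by 0.30 and by 0.17 (blocked limma adjusted p = 0.0106 and 0.0181). None of these genes passed in DESeq2 with the block, and each failed in the blocked limma fit when some pair was left out. GFRA2 was at 380.1, 463 and 391 normalized counts in untreated and 308, 402 and 297 in isoproterenol replicates 1 to 3, and the groups overlapped. The most abundant were the receptor CNTFR at 263 TPM and the ligand MANF at 59.9 TPM, and neither passed. GDNF was under the limit on low counts.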

How the data were processed

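Poly(A) RNA from 6 samples of RBM12-knockdown iNeurons was sequenced, 3 untreated and 3 with isoproterenol, grouped and numbered by their titles. The authors aligned reads to GRCh38 with STAR, counted them with featureCounts and divided by DESeq2 size factors (0.867 to 1.033), and the deposited table holds this signal, a normalized count per gene. Versions, annotation release and strand setting are not given in the sources used here. Every value above 0 was a whole multiple of 1 step per sample (100%, tolerance 0.001), which gave whole reads. The step of isoproterenol replicate 1, 0.998, lay close to 1, but 0.111% of its values were whole as deposited, so the step and not 1 was used, and reads of that sample rest on it. Per-sample columns not used numbered 0.

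Genes with more than 5 reads in at least 4 samples were tested (18130; 1693 removed) with limma 3.58.1 in R 4.3.3, (trend and robust options) on log2(normalized count + 1), all 6 samples, two-sided, Benjamini-Hochberg over all genes tested, called at an adjusted p under 0.05. Fold changes are on that scale. The deviations of same-numbered samples correlated at 0.269, 0.493 and 0.388 over 11587 genes that averaged 100 or more. All exceeded 0.1, the limit set for pairing, and fits with a replicate block are given beside. Correlations between differently numbered samples were not computed, so these values do not compare this pairing with another. Neither the labels nor the methods state that same-numbered samples shared a culture or batch. edgeR 4.0.16 (quasi-likelihood) and DESeq2 1.42.0 on the recovered reads, other scalings, limits and pseudocounts, and leaving out samples were alternatives. Scripts were tested on simulated data. The F test for replicate number was added later.

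Positions and lengths came from GENCODE release 44 (99.6% of identifiers found), promoters from RefSeq. The members and lists were chosen with earlier results of these data known. Named were the 6 genes, antisense partners, the other receptors and ligands of the family (some not reported here), list genes called without the block, up to 4 per list called with it, the most abundant tested gene per list, and the 5 genes most correlated with BDNF. Marker genes named were chosen after their values were seen.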

Additional observations from a re-analysis of the deposited data

How the results depend on the processing

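The replicate block decided the BDNF call: its log2 fold change was 0.56 without and with the block, and it passed with the replicate block in limma (0.56), edgeR (0.57) and DESeq2 (0.56) and without pair 1, 2 or 3 (0.58, 0.58 and 0.53), so the number of the 6 genes past the threshold was 1 in each of these fits and 0 in the other 14. Leaving out 1 sample without the block gave BDNF 0.29 to 0.85, lowest without isoproterenol replicate 3 and highest without isoproterenol replicate 2. Genes called in the wider lists numbered 0, but 14 with the replicate block in limma, 2 in edgeR, 14 in edgeR with the block, 1 in DESeq2 with the block, 1 with a pseudocount of 5, 6, 10 and 7 in the blocked fit without pair 1, 2 and 3, and 0 to 1 with 1 sample left out (1 without untreated replicate 2 or 3). Receptor directions were not fixed: over samples left out in turn NTRK2 ran from -0.097 to 0.030, NTRK3 from -0.016 to 0.13, NGFR from -0.054 to 0.013 and SORT1 from -0.014 to 0.037, and without pair 1 in the blocked fit NTRK3 was -0.021 and SORT1 -0.018. NTF3 kept its sign in 19 alternatives (-0.79 to -0.11) and had no value at a mean of at least 50. NTF3 and the 4 receptors did not pass under any alternative run. With 4 to 14 reads per sample, depth limits what can be said of NTF3.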

Other observations

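The level of BDNF relative to NTF3 per exon length was 13.0, 5.88 and 19.4 in untreated and 22.1, 24.8 and 30.4 in isoproterenol replicates 1 to 3. NTF3 rests on few reads, and the ratio carries that counting error.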
